A study of Mus musculus with 12 samples.

Results

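Apolipoprotein E (Apoe) and 8 genes tied to it through the liver X receptors (LXR) were followed in mouse basal cell carcinoma keratinocytes, 9 of the 17090 genes in the deposited expression table. The set was chosen by the levels of Apoe in the 4 groups, which rose when YAP1 and TAZ were knocked down and did not rise under a TEAD inhibitor; its values are therefore given as a description, with no test. Abca1, Abcg1, Nr1h2, Nr1h3, Mylip, Srebf1, Scd1 and Lpcat3 were added for their known link to LXR, to ask whether LXR targets followed Apoe. All 9 were measured, and 8 of them passed the filter on low values; Nr1h3 did not.

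The liver X receptors are nuclear receptors, LXRα encoded by Nr1h3 and LXRβ by Nr1h2, that bind DNA with a retinoid X receptor partner and are switched on by oxysterols, the oxidised forms of cholesterol. Their textbook targets move cholesterol out of the cell (Abca1, Abcg1), carry it in lipoprotein particles (Apoe), limit its uptake (Mylip) and turn on fatty acid and phospholipid remodelling (Srebf1, Scd1, Lpcat3). In epidermis LXR ligands are known to promote keratinocyte differentiation and barrier lipid formation, and LXR control of Apoe is best known from macrophages and fat cells.

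Polyadenylated RNA was sequenced from 12 libraries, 3 in each of 4 groups. All came from primary tail-skin keratinocytes of K14-SmoM2 mice (K14, keratin 14), taken 5 weeks after tamoxifen. Every group, the controls included, thus came from mice with the activated Smoothened allele SmoM2. All cells grew in EpiLife medium with 60 µM calcium, EGF at 10 ng/ml and the ROCK inhibitor Y-27632 at 10 µM, were treated 1 day after plating and were collected 48 h later. The siControl group received a non-targeting siRNA and the siYAP1+TAZ group pooled siRNAs against both genes, each at 8 pmol per cm2 with a lipid reagent. The ad_GFP and ad_TEADi groups received type 5 adenovirus at a multiplicity of infection of 25, with a CMV promoter driving green fluorescent protein or the TEAD inhibitor TEADi. Animal age is not given, and nothing says that libraries A, B and C of a group came from separate animals or cultures, so the p-values measure the spread between these libraries, which may be technical.

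Library depth was estimated at 20.0 to 29.1 M reads by taking the lowest value of each library as a single read, which the deposited files do not state. Yap1 averaged 196 CPM (TMM-scaled reads per gene, as the authors deposited them) in siControl and 67.1 CPM in siYAP1+TAZ, and Wwtr1, which encodes TAZ, 55.2 and 28.1 CPM, so the knockdown was partial at the RNA level. Ccn2, a YAP/TAZ-TEAD target, averaged 48.2 CPM in siControl and 9.002 CPM in siYAP1+TAZ, and 65.3 CPM in ad_GFP and 5.40 CPM in ad_TEADi. Summed keratinocyte markers lay between 33740 and 38810 CPM in every library. In bulk libraries like these, fewer cells of a type and less RNA per cell cannot be told apart.

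Promoter windows of Apoe, Abca1 and Srebf1 are shown because the LXR question turns on these genes' control regions. The set was built around Apoe, and Abca1 and Srebf1 are known in mouse to carry an LXR response element close to their start. Apoe is shown at the first of 3 listed starts and Abca1 at its only one. Srebf1 is shown at the third of 3, taken because that window held the match marked below, which its other windows did not. Each window runs from 250 bases before to 50 bases after a RefSeq transcription start (RefSeq, GRCm38.p6, minus strand, printed 5′ to 3′ in the direction of the gene); capitals mark a match to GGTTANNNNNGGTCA, found here as its reverse complement.
Apoe promoter, chr7:19699139-19699438: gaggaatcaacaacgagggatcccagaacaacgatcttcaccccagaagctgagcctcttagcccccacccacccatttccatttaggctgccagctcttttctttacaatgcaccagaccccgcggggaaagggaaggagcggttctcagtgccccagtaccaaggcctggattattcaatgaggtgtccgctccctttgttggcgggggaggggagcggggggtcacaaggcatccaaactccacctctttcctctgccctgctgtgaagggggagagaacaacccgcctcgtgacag
Abca1 promoter, chr4:53159846-53160145: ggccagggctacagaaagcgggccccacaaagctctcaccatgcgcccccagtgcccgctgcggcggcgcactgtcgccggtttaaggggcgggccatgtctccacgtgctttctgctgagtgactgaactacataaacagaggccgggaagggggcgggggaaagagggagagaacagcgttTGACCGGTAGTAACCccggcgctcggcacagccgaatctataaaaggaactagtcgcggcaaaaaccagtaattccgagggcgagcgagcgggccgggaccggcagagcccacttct
Srebf1 promoter, chr11:60210422-60210721: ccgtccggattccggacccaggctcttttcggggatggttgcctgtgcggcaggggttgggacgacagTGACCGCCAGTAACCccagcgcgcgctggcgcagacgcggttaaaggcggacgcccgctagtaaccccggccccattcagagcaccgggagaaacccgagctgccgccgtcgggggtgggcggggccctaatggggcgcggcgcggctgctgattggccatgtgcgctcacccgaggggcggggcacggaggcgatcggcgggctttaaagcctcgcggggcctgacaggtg

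The marked letters lay 67 to 53 bases before the Abca1 start and 182 to 168 bases before the third listed Srebf1 start. This motif, a variant of the direct repeat with 4 spacer bases (DR4) that LXR binds with its partner, was written after these sequences had been inspected, and 16 of 32851 promoter windows (0.0487%) held it. Both strands were searched in 12 windows of 7 members (Abcg1 and Scd1 had none). The perfect repeat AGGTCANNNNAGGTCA (0.0152% of all windows), the half-site AGGTCA (16.3%), the sterol element TCACNCCAC (1.24%) and the AP-1 site TGANTCA (7.81%) matched in none of the 12; AGGTCA is contained in the perfect repeat. The TEAD motif GGAATG matched once, 130 bases before the third listed Apoe start, and was held by 14.7% of all windows. A match is a description of the letters, and the LXR-responsive enhancers known for Apoe and Apoc1 lie outside such windows.

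Apoe (ENSMUSG00000002985, chr7:19696109-19699188 in mm10, minus strand) stood at 34.1, 33.7 and 41.5 CPM in siControl libraries A, B and C. It stood at 482, 520 and 488 CPM in siYAP1+TAZ. It stood at 200, 217 and 207 CPM in ad_GFP and at 182, 139 and 136 CPM in ad_TEADi. The 4 groups did not overlap: siYAP1+TAZ was highest, ad_GFP next, ad_TEADi below it, and siControl lowest by a wide margin. Group means were 36.5 ± 4.38, 497 ± 20.7, 208 ± 8.88 and 152 ± 25.7 CPM (SD, n = 3) for siControl, siYAP1+TAZ, ad_GFP and ad_TEADi.

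In the knockdown Apoe stood 13.6-fold above its siRNA control, and under the TEAD inhibitor it stood at 0.731 of its virus control. On the log2(CPM + 1) scale used throughout, the changes were 3.74 and -0.46. Of 12966 genes tested, 3 rose more than Apoe in the knockdown, and 1335 had a lower value than Apoe under ad_TEADi. The label of a rise with knockdown only does not cover the virus control: ad_GFP stood 5.705-fold above siControl (2.49 on the log2 scale), and no tested gene rose more between these groups. The 2 controls differ in virus against lipid transfection, in GFP and in the siRNA, and these cannot be told apart. The knockdown libraries stood 2.39-fold above ad_GFP, a comparison that crosses both delivery and treatment. The plot of levels by library shows this pattern beside those of the other members.

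**Figure D1:**
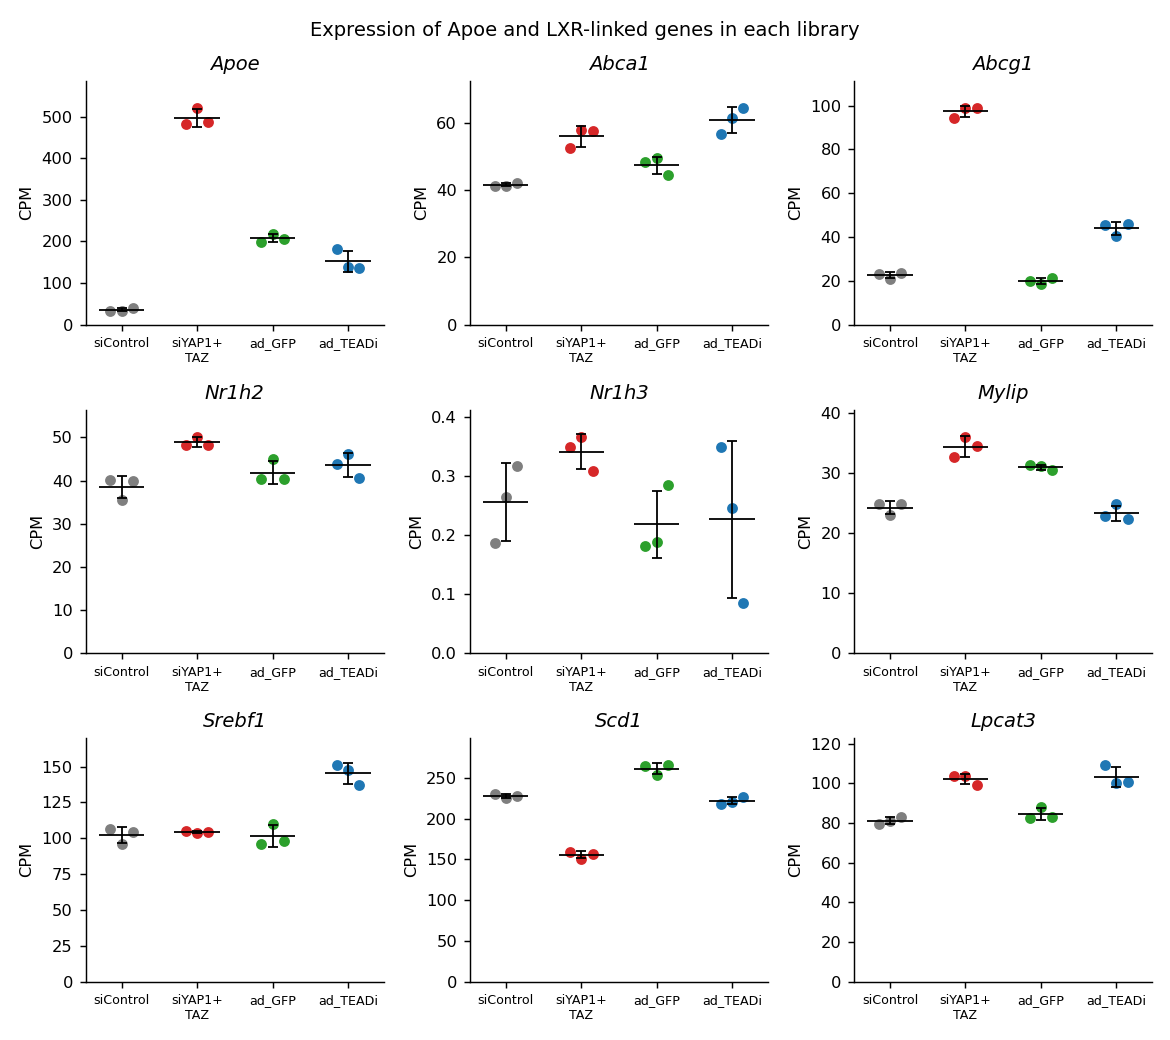
CPM of Apoe and the 8 LXR-linked genes in each of the 12 libraries (points), with the group mean (line) and SD (bars, n = 3); every axis starts at 0. Apoe is highest in siYAP1+TAZ (497 CPM) and higher in ad_GFP (208 CPM) than in siControl (36.5 CPM), while Abcg1 is highest in siYAP1+TAZ (97.3 CPM), with ad_TEADi (44.1 CPM) above both controls.

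Abcg1 (chr17:31057675-31117988, plus strand), the half-transporter that passes cholesterol to high-density lipoprotein, rose under both treatments. Abca1 (chr4:53030787-53159895, minus strand), which passes cholesterol and phospholipid to lipid-poor apolipoproteins, rose modestly under both. Of the 7 other members tested, 5 rose and 1 fell in the knockdown, beside 68.9% of all genes called in either direction (32.7% higher, 36.1% lower); the 5 were Abca1, Abcg1, Nr1h2, Mylip and Lpcat3 and the 1 was Scd1. Under ad_TEADi 4 rose and 2 fell, beside 59.8% of all genes called (33.5% higher, 26.3% lower); the 4 were Abca1, Abcg1, Srebf1 and Lpcat3 and the 2 were Mylip and Scd1. Calls are adjusted p under 0.05 from limma. The median log2 change of the 7 was 0.34 in the knockdown and 0.29 under ad_TEADi, where the medians of all genes were -0.03 and 0.03. The difference of the 2 treatment changes was positive for 3 of the 7 (Abcg1, Nr1h2 and Mylip) and negative for 2 (Srebf1 and Scd1), beside 51.5% of all genes called (25.1% higher, 26.4% lower). The split over all genes rests on the scaling: 4245 genes were higher and 4687 lower in the knockdown as deposited, and 2837 higher and 7146 lower with every column rescaled to one total. Under ad_TEADi 4339 were higher and 3415 lower as deposited, and the rescaled split turned to 3034 higher and 4719 lower.

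Abcg1 read 23.2, 21.1 and 23.7 CPM in siControl and 94.5, 98.8 and 98.7 CPM in siYAP1+TAZ. It read 19.9, 18.6 and 21.3 CPM in ad_GFP and 45.4, 40.7 and 46.1 CPM in ad_TEADi. Both treated groups lay clear of their controls, whereas the controls overlapped each other. The ratio of means was 4.29 in the knockdown and 2.21 under ad_TEADi, and limma gave log2 changes of 2.06 (SE 0.0594, adjusted p 2.49e-16) and 1.11 (adjusted p 3.96e-12). The knockdown change exceeded the ad_TEADi change by 0.95 (limma, SE 0.084, adjusted p 2.88e-08).

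Abca1 read 41.3, 41.35 and 42.0 CPM in siControl and 52.35, 58.0 and 57.4 CPM in siYAP1+TAZ. It read 48.3, 49.4 and 44.5 CPM in ad_GFP and 56.6, 61.5 and 64.3 CPM in ad_TEADi. No treated library fell within its control's range. The log2 changes by limma were 0.42 (SE 0.0539, adjusted p 1.05e-06) and 0.35 (SE 0.0539, adjusted p 1.31e-05). Their difference was 0.07 (SE 0.0762, adjusted p 0.492, 0.244 to 0.877 over the alternatives), so no difference between the treatments was called, and with all columns rescaled to one total its sign turned (-0.03).

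Of the receptors, Nr1h2 (chr7:44549616-44553951, minus strand) carried nearly all of the measured LXR message. It read 40.2, 35.5 and 39.8 CPM in siControl and 48.3, 50.2 and 48.3 CPM in siYAP1+TAZ. It read 40.4, 44.9 and 40.35 CPM in ad_GFP and 43.8, 46.2 and 40.7 CPM in ad_TEADi. The siRNA groups were separate and the virus groups overlapped. Nr1h2 rose by 0.34 in the knockdown (limma, SE 0.058, adjusted p 3.49e-05) and stood at 0.06 under ad_TEADi (limma, adjusted p 0.424; 0.142 to 0.878 over the alternatives), where the sign turned under rescaling to one total (-0.04) and quantile normalization (-0.02). The difference between the treatments, 0.28 (limma, SE 0.0821, adjusted p 0.00719; 0.00417 to 0.0542 over the alternatives), was no longer called after rescaling to one total, at 0.19 with adjusted p 0.0542.

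Nr1h3 (chr2:91184061-91202834, minus strand), the LXRα gene, stayed below 1 CPM in all 12 libraries and was not tested. It read 0.187, 0.265 and 0.318 CPM in siControl and 0.3495, 0.367 and 0.309 CPM in siYAP1+TAZ. It read 0.181, 0.189 and 0.284 CPM in ad_GFP and 0.350, 0.246 and 0.0847 CPM in ad_TEADi. With the lowest value of a library taken as a single read, those values are worth 2 to 10 reads per library. No difference between groups could be seen at this depth. Per kilobase of exon, Nr1h2 averaged 11.5 CPM per kb and Nr1h3 0.102 CPM per kb in siControl.

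Mylip (chr13:45389742-45412022, plus strand), the ubiquitin ligase that marks low-density lipoprotein receptors for breakdown, moved in opposite directions under the 2 treatments. It read 24.9, 23.0 and 24.8 CPM in siControl and 32.6, 36.0 and 34.4 CPM in siYAP1+TAZ. It read 31.25, 31.1 and 30.4 CPM in ad_GFP and 22.8, 24.7 and 22.4 CPM in ad_TEADi. No treated library overlapped its control. limma gave 0.49 (SE 0.0548, adjusted p 1.68e-07) in the knockdown, -0.40 (adjusted p 3.78e-06) under ad_TEADi and 0.88 (SE 0.0774, adjusted p 2.66e-08) for the difference. The values of Apoe in the first 2 of these comparisons were 3.74 and -0.46.

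Srebf1 (chr11:60199089-60222581, minus strand), which encodes the transcription factor that drives fatty acid synthesis, rose under ad_TEADi and was not called in the knockdown. It read 107, 96.35 and 104.5 CPM in siControl and 105, 104 and 104 CPM in siYAP1+TAZ. It read 95.9, 110 and 98.3 CPM in ad_GFP and 151, 148 and 137 CPM in ad_TEADi. The knockdown libraries lay inside the siControl range, and the ad_TEADi libraries lay above all others. The change was 0.52 under ad_TEADi (limma, adjusted p 3.94e-08) and 0.03 in the knockdown (limma, SE 0.0514, adjusted p 0.63; 0.00616 to 0.822 over the alternatives). Under rescaling to one total the knockdown value turned to -0.16 (adjusted p 0.00616, limma) and under quantile normalization to -0.14 (adjusted p 0.0195, limma); the first shifts the median of all genes by -0.17, and relative to that median Srebf1 stood at 0.04. The difference between the treatments was -0.49 (limma, SE 0.0727, adjusted p 1.78e-05). Of its exons 1.94% overlap Rai1 on the opposite strand, and whether counting used strand is not stated.

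Scd1 (chr19:44394455-44407879, minus strand), the desaturase that makes oleate and a target of both LXR and the Srebf1 product, fell under both treatments. It read 230, 226 and 227 CPM in siControl and 160, 151 and 157 CPM in siYAP1+TAZ. It read 265, 254 and 266 CPM in ad_GFP and 218, 221 and 227 CPM in ad_TEADi. Neither treated group overlapped its control. Scd1 fell by 0.54 on the log2 scale in the knockdown (limma, SE 0.0361, adjusted p 5.53e-11) and by 0.23 under ad_TEADi (limma, adjusted p 1.39e-05), and the difference was -0.31 (limma, SE 0.051, adjusted p 5.32e-05).

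Lpcat3 (chr6:124663027-124704418, plus strand), which loads polyunsaturated fatty acids into membrane phospholipids, rose under both treatments. It read 79.4, 80.9 and 82.95 CPM in siControl and 103.5, 104 and 99.3 CPM in siYAP1+TAZ. It read 82.5, 87.9 and 83.2 CPM in ad_GFP and 109, 99.97 and 100.5 CPM in ad_TEADi. No treated library fell within its control's range. limma gave 0.33 (SE 0.0427, adjusted p 1.13e-06), 0.29 (adjusted p 1e-05) and, for the difference, 0.04 (SE 0.0604, adjusted p 0.566; 0.231 to 0.848 over the alternatives), whose sign turned under rescaling to one total (-0.05) and quantile normalization (-0.02). Lpcat3 shares 334 exon bases, 10.2% of its exon length, with Emg1 on the opposite strand. Reads within that stretch could not be told from those of Emg1 if strand was not used.

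**Figure D2:**
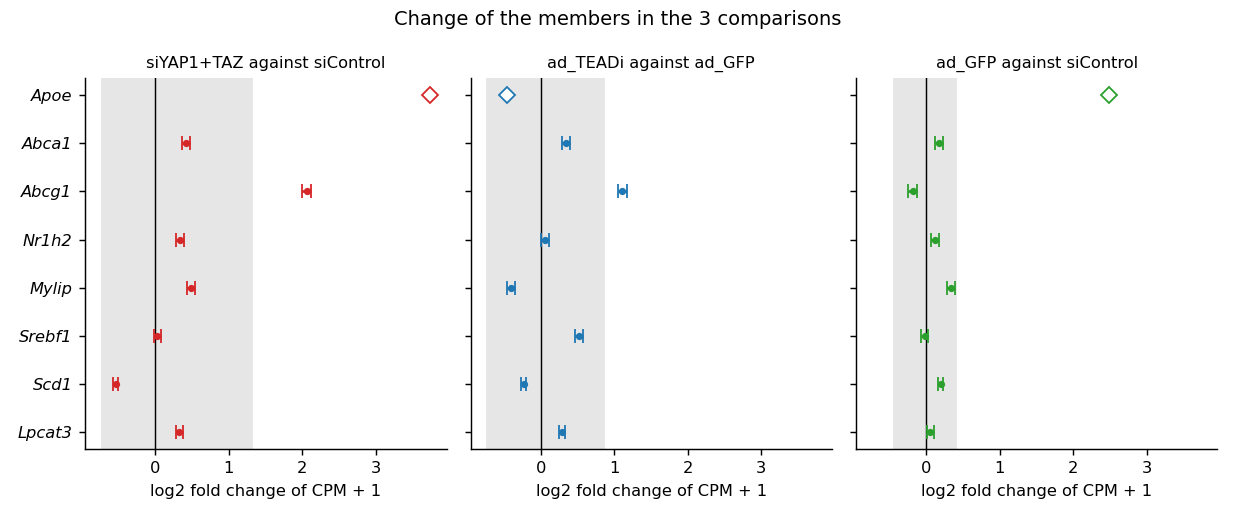
Log2 change of CPM + 1 of 8 members in 3 comparisons; circles are limma estimates with their SE (bars), the open diamond is Apoe, given with no test, and the grey band spans the 5th to 95th percentile of all 12966 genes tested. Apoe lies far right of the band in the knockdown (3.74) and between the 2 controls (2.49) and left of 0 under ad_TEADi (-0.46), and Abcg1 lies right of the band in both treatments (2.06 and 1.11).

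Between the control groups, 3 of the 7 other members were higher in ad_GFP and 1 was lower, beside 40.4% of all genes called (18.7% higher, 21.8% lower; with columns rescaled to one total the split turned to 3184 genes higher and 2214 lower). This comparison shares its libraries with both treatment comparisons. The 3 higher were Mylip at 0.34 (limma, adjusted p 6.01e-05), Scd1 at 0.20 (limma, adjusted p 0.000218) and Abca1 at 0.18 (limma, adjusted p 0.0102; 0.00373 to 0.0456 over the alternatives). The 1 lower was Abcg1 at -0.18 (limma, adjusted p 0.022; 0.00725 to 0.104 over the alternatives), a call lost without siControl A or C, without ad_GFP A or B, or with columns rescaled to one total. Nr1h2, at 0.12, was not called as deposited (limma, adjusted p 0.113; 0.0313 to 0.448 over the alternatives) and was called higher after rescaling to one total (0.16; limma, adjusted p 0.0313). Apoe stood at 2.49.

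Ordered by level per exon length, Scd1 led in siControl at 46.6 CPM per kb, then Lpcat3 at 24.8, Srebf1 at 18.2, Apoe at 17.05, Nr1h2 at 11.5, Mylip at 7.50, Abca1 at 4.01 and Abcg1 at 3.11 CPM per kb. Srebf1 (17.1 to 18.9) and Apoe (15.8 to 19.4 CPM per kb) overlapped there. In the other 3 groups Apoe was first, at 232 CPM per kb in siYAP1+TAZ, 97.3 in ad_GFP and 71.1 in ad_TEADi. Abcg1 passed Abca1 in siYAP1+TAZ, at 13.3 against 5.40 CPM per kb, while in ad_TEADi the ranges of Abcg1 (5.58 to 6.32) and Abca1 (5.46 to 6.21 CPM per kb) overlapped.

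The ratios of group means in the authors' deposited table were the same for these genes, for example 13.6 and 0.731 for Apoe, and its adjusted p for Nr1h3, which limma did not test here, was 0.451 in the knockdown and 0.835 under ad_TEADi.

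Among LXR partners and cofactors, 10 of 11 were tested; 7 rose and none fell in the knockdown (median 0.36), and 7 rose and 1 fell under ad_TEADi (median 0.23), where 68.9% and 59.8% of all genes were called in the 2 comparisons. Nrip1, the corepressor and coactivator RIP140, rose by 1.10 and 0.54, and Ncoa1, the coactivator SRC-1, by 1.06 and 0.52. Rxra, the main retinoid X receptor of keratinocytes, rose by 0.56 and 0.30, and the acetyltransferase gene Ep300 by 0.47 and 0.28. All calls in this and the next 3 paragraphs are limma's at an adjusted p under 0.05, and the first value is always the knockdown and the second ad_TEADi; the SE of these values ran from 0.038 (Arl4c) to 0.138 (Abcg4).

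Other LXR targets did not move one way. Of 11 tested, 3 rose and 5 fell in the knockdown (median -0.08), and 4 rose and 4 fell under ad_TEADi (median 0.04), beside 68.9% and 59.8% of all genes called. Apoc1, which encodes another apolipoprotein and lies beside Apoe, rose by 2.22 and 0.33. Lpl, lipoprotein lipase, fell by 0.83 and 1.08. The lipid droplet protein gene Pnpla3 stood at -0.02, not called, and fell by 1.16. Arl4c, a small GTPase gene, fell by 0.92 and stood at 0.09, not called. Its 2 controls also differed: ad_GFP, at 98.4 CPM, was lower than siControl, at 165 CPM (-0.74 by limma, adjusted p 3.18e-11).

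Of 13 tested genes of sterol efflux, storage and transport, 6 rose and 3 fell in the knockdown (median -0.04), and 7 rose and 4 fell under ad_TEADi (median 0.12), beside 68.9% and 59.8% of all genes called. Abca12, the transporter that fills epidermal lamellar granules, rose by 2.08 and 1.76. The sterol transporter gene Abcg4 rose by 1.95 and 0.69, from 0.958 to 6.495 CPM and from 1.055 to 2.306 CPM, low levels at which this scale understates changes. Npc1, which lets cholesterol leave lysosomes, rose by 0.88 and 0.43, and Cav1, which builds caveolae, fell by 1.64 and 1.28. Of 7 tested genes of oxysterol and cholesterol sulfate metabolism, 3 rose and none fell in the knockdown (median 0.13), and 2 rose and 3 fell under ad_TEADi (median 0.02), beside the same shares. Sult2b1, which makes cholesterol sulfate, rose by 1.91 and 1.77. Cyp27a1, which makes the LXR ligand 27-hydroxycholesterol, rose by 1.23 and fell by 0.73, from 2.65 to 7.50 CPM and from 4.185 to 2.15 CPM. Hsd3b7, which breaks down oxysterols, stood at 0.13, not called, and fell by 0.97. Dhcr7, the enzyme that finishes cholesterol, rose by 0.34 and 0.35.

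Among 6 tested apolipoprotein E receptors, 1 rose and 4 fell in the knockdown (median -0.12), and 2 rose and 1 fell under ad_TEADi (median 0.02). Here and for the next 3 lists, 68.9% of all genes were called in the knockdown and 59.8% under ad_TEADi. Lrp1 rose by 1.46 and 0.87, Sorl1 fell by 1.19 and 0.81, Lrp8 fell by 0.49 and stood at -0.01, not called, and Vldlr stood at 0.01, not called, and rose by 0.18, a call lost under rescaling to one total and quantile normalization. Of 13 tested genes of SREBP1 and fatty acid synthesis, 4 rose and 4 fell in the knockdown (median 0.03), and 5 rose and 5 fell under ad_TEADi (median 0.08). Me1, malic enzyme, rose by 1.16 and 0.79, while Fads2 fell by 1.21 and 0.91 and Fads1 by 1.12 and 1.08. The desaturase gene Scd3 rose by 0.56 and 1.27, from 0.817 to 1.661 CPM and from 0.566 to 2.777 CPM, also low levels. Of 13 genes of SREBP processing and SREBP2 targets, 5 rose and 5 fell in the knockdown (median 0.04), and 4 rose and 3 fell under ad_TEADi (median -0.01). Sqle rose by 0.70 and 0.38, Insig2 rose by 0.45 and stood at -0.07, not called, and Scap rose by 0.47 and 0.16, the second call lost under both other scalings. Of 6 lysophospholipid acyltransferases, 2 rose and 3 fell in the knockdown (median -0.12), and 1 rose and 3 fell under ad_TEADi (median -0.23). Lpcat1 fell by 0.89 and 0.80, Lpcat4 by 0.83 and 0.38 and Lpcat2 by 0.29 and 0.79, while Mboat1 rose by 0.32 and 0.81.

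**Figure D3:**
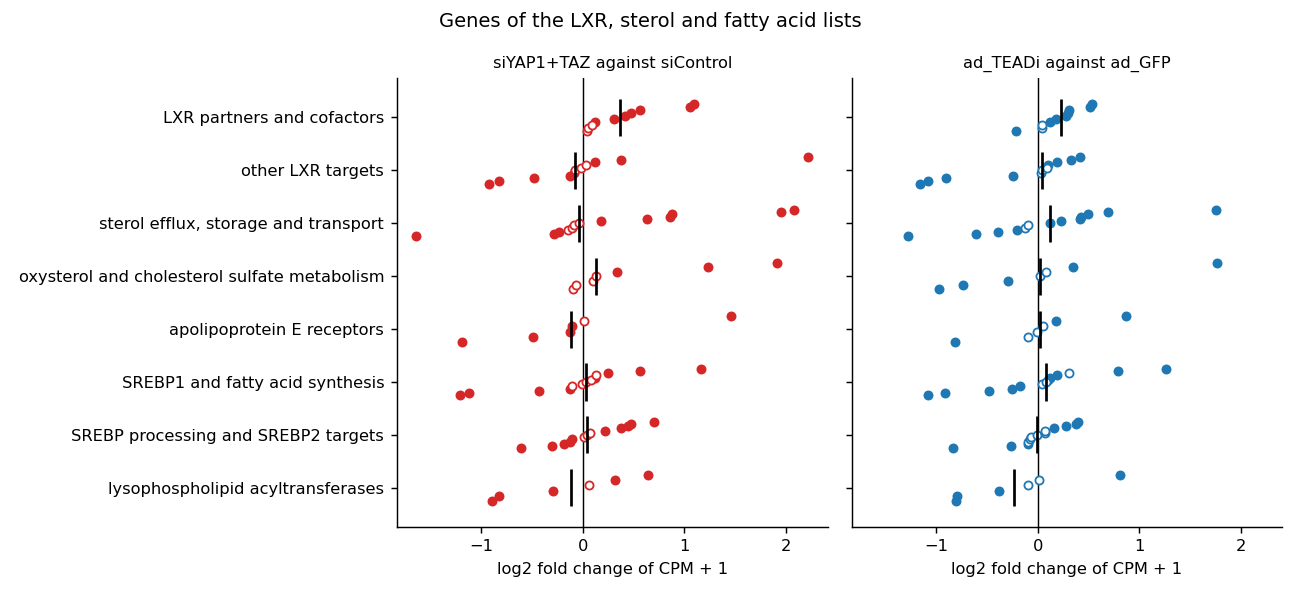
Log2 change of CPM + 1 of each tested gene in 8 lists, in the knockdown and under ad_TEADi; filled points were called by limma, open points were not, and the bar is the list's median. In the knockdown neither LXR partners and cofactors nor oxysterol metabolism has a called point left of 0, and the other 6 lists hold called points on both sides.

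The neighbours of Apoe on chromosome 7 were measured because Apoe and Apoc1 are known to share distal enhancers in liver and macrophages. Of 8 neighbours tested, 6 rose and 2 fell in the knockdown (median 0.35), and 5 rose and 3 fell under ad_TEADi (median 0.18), beside 68.9% and 59.8% of all genes called. Apoc1 (chr7:19689481-19692660, minus strand), 6.5 kb from the Apoe start, read 17.5, 15.6 and 17.2 CPM in siControl and 84.9, 83.0 and 77.4 CPM in siYAP1+TAZ. It read 45.3, 39.4 and 48.8 CPM in ad_GFP and 61.55, 52.5 and 54.3 CPM in ad_TEADi. Apoc1 rose in the knockdown (2.22; limma, SE 0.0709, adjusted p 8.79e-16), was higher in ad_GFP than in siControl (1.35; limma, adjusted p 4.3e-11) and rose under ad_TEADi (0.33; limma, adjusted p 0.000504).

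Farther out, Tomm40, 16.2 kb from the Apoe start, fell by 0.30 and stood at 0.16, a call lost under 2 scalings and without ad_GFP A or C or ad_TEADi A or B. Nectin2, at 51.3 kb, rose by 0.38 and fell by 0.28, and the adhesion gene Bcam, at 71.8 kb, rose by 0.32 and fell by 0.41. Bcam was also 1.05 higher in ad_GFP than in siControl (limma, adjusted p 2.2e-10) and Nectin2 0.43 higher (limma, adjusted p 2.82e-05). Cblc, at 97.6 kb, rose by 0.62 and 0.30 and Bcl3, at 123.6 kb, by 1.56 and 1.08. On the other side, Clptm1 rose by 0.26 and 0.20, the first call lost under rescaling to one total, and Relb fell by 0.33 and 0.26.

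**Figure D4:**
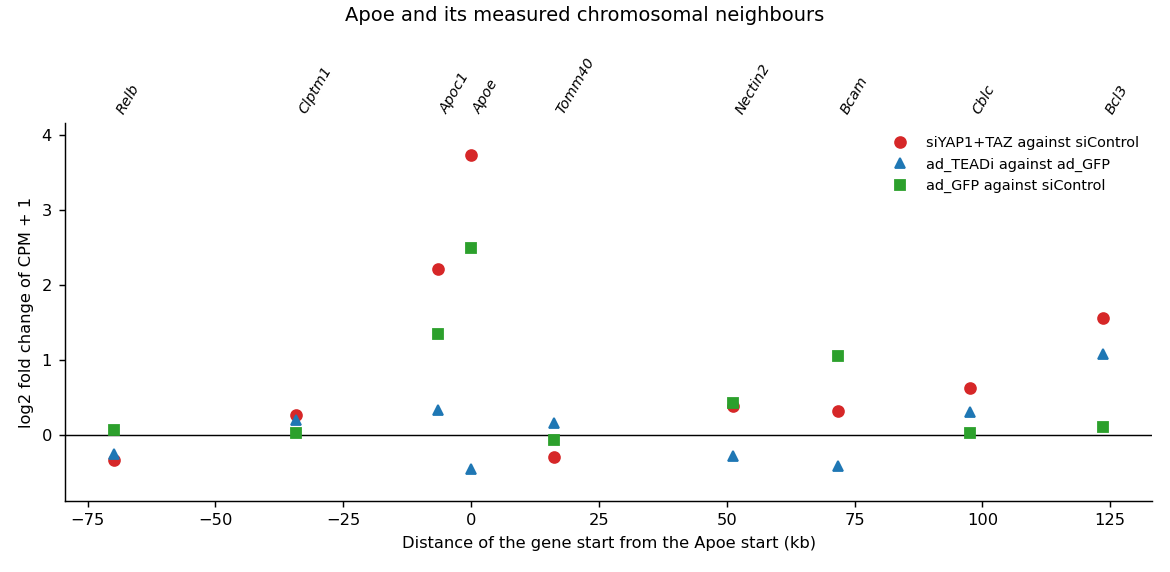
Log2 change of CPM + 1 of Apoe and its 8 tested neighbours against the distance of each gene's start from the Apoe start (kb), in the knockdown (circles), under ad_TEADi (triangles) and between the controls (squares). Apoe and Apoc1 are the highest circles (3.74 and 2.22), while Tomm40, 16.2 kb away, lies at -0.30.

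The 5 genes whose profile over the 12 libraries lay closest to that of Apoe, by the root mean square difference of centred log2(CPM + 1) values among 8936 genes averaging at least 10 CPM, were Gpnmb (0.509), Apoc1 (0.617), Chit1 (0.649), Krt15 (0.651) and Defb1 (0.75). Their Pearson correlations with Apoe over these libraries were 0.927, 0.954, 0.877, 0.904 and 0.926; the libraries share 4 treatment groups. Gpnmb encodes a lysosomal glycoprotein, Chit1 a chitinase, Krt15 a basal and bulge keratin and Defb1 a beta-defensin. All were highest in siYAP1+TAZ and higher in ad_GFP than in siControl, which restates how they were chosen, and each averaged higher in ad_TEADi than in ad_GFP, where Apoe averaged lower. Among the LXR-linked members, Abcg1 came nearest by this difference, at place 79 (correlation 0.695). Mylip followed at 962 (0.766), Abca1 at 1390 (0.643), Nr1h2 at 1583 (0.832) and Lpcat3 at 1730 (0.67). Srebf1 was at 4420 (0.031) and Scd1 at 8023 (-0.561). By correlation Nr1h2 and Mylip stood above Abcg1. The difference was 0.72 of Apoe's own spread for Abcg1 and 0.875 to 0.925 for Mylip, Abca1, Nr1h2 and Lpcat3. A gene with a flat profile would differ by the whole of that spread.

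**Figure D5:**
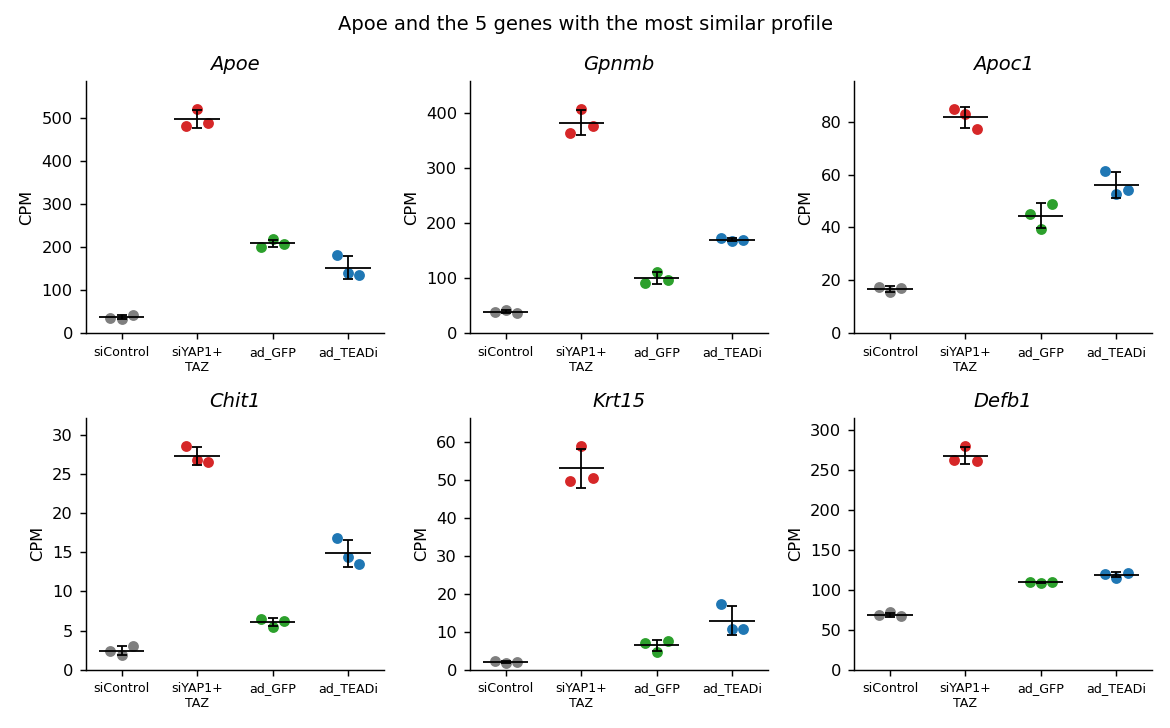
CPM of Apoe and the 5 genes closest to it in profile, per library (points), with the mean (line) and SD (bars, n = 3); axes start at 0. In all 6 the siYAP1+TAZ libraries are highest and the siControl libraries lowest, and Apoe is the one whose ad_TEADi libraries (136 to 182 CPM) lie below ad_GFP (200 to 217 CPM).

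Apoe and LXR targets are also strongly expressed by macrophages, so macrophage and Langerhans cell markers were summed; 9 of 12 were measured. Their sum was 20.2 to 21.0 CPM in siControl, 54.0 to 55.5 in siYAP1+TAZ, 20.1 to 22.6 in ad_GFP and 43.1 to 47.0 CPM in ad_TEADi. The largest part was Cd68, a lysosomal gene, at 9.97, 38.0, 9.97 and 29.3 CPM of mean sums of 20.6, 54.8, 21.1 and 45.3 CPM. It made up most of the sum in siYAP1+TAZ and ad_TEADi only. The defining markers Ptprc, C1qa, C1qb and C1qc averaged under 1 CPM in every group. Of the 5 markers tested by limma, 4 rose and 1 fell in the knockdown, and 3 rose and 1 fell under ad_TEADi. In the knockdown Cd68 rose, as did Lyz2 from 5.29 to 10.01 CPM, Cd14 from 2.52 to 3.315 CPM and Itgam from 1.23 to 2.07 CPM. Csf1r fell from 1.08 to 0.32 CPM. Here and for the sebocyte markers below, 68.9% of all genes were called in the knockdown (32.7% higher). Under ad_TEADi 59.8% were called (33.5% higher). Adipocyte markers, 2 of 5 measured, were 2.02 to 2.25 CPM in siControl, 8.48 to 9.775 in siYAP1+TAZ, 0.936 to 1.22 in ad_GFP and 4.575 to 5.45 CPM in ad_TEADi. That sum was made mostly of Fabp4, which averaged 2.06, 8.88, 0.811 and 4.82 CPM. The other marker, Lep, averaged 0.0934, 0.0729, 0.286 and 0.0933 CPM and was not tested. Sebocyte markers, 5 of 9, were 330 to 377, 182 to 191, 316 to 334 and 360 to 376 CPM in the same order, a sum made mostly of Plin2, which averaged 346, 155, 305 and 336 CPM. Of the 4 sebocyte markers tested, 3 rose and 1 fell in the knockdown (median 0.90), with Cidea at 4.54 and 17.04 CPM and Mgst1 at 4.99 and 13.1 CPM in siControl and siYAP1+TAZ, and 3 rose and none fell under ad_TEADi (median 0.71). Melanocyte markers, 7 of 7, were 9.36 to 10.6, 11.85 to 13.7, 8.67 to 9.915 and 10.3 to 12.2 CPM, and fibroblast markers, 5 of 6, were 3.84 to 7.07, 5.66 to 11.2, 2.35 to 3.21 and 3.70 to 4.26 CPM. Their part in the results on Apoe and the other members was not tested.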

How the data were processed

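The authors deposited 1 table of TMM-normalized CPM per gene for 12 libraries, with ratios of group means and p-values of their own comparisons; per the submitters' processing notes cutadapt 1.18, STAR 2.7.0f and Partek 8.0.19.0819 were used on mm10. The deposited ratio and p-value columns are printed only where the authors' deposited table is named. How reads were counted, and whether by strand, is not stated. No value was exactly 0. With the lowest value of a library taken as a single read, only 82.7 to 84.6% of low CPM values lay within 0.1 read of a whole number. No count test was therefore run.

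Genes at 1 CPM or more in at least 3 libraries (12966 of 17090; 4124 set aside) were tested on log2(CPM + 1) with limma 3.58.1 in R 4.3.3, moderated with 1 spread estimate over the 4 groups and Benjamini-Hochberg adjustment over all genes; changes of low genes are understated on this scale. The contrasts were siYAP1+TAZ against siControl, ad_TEADi against ad_GFP, their difference, and ad_GFP against siControl. Replicates of a group were distinct libraries, with 91.0 to 94.4% of genes differing by over 0.01 log2 within a pair. Members and gene lists were chosen with earlier results of these data known. Named are all members, up to 4 called genes per list with the largest change and a mean of at least 1 CPM, all measured neighbours of Apoe and the 5 genes closest to its profile; 1 gene that this rule names is not reported here. Positions are from GENCODE vM21, matched for 99.9% of the table's genes; promoter sequences are from RefSeq. Alternatives were a pseudocount of 0.1, no filter, rescaling to one total, quantile normalization, a replicate block, a fit of only the 2 groups compared, and leaving out each library.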

Additional observations from a re-analysis of the deposited data

Results flagged for a closer look

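The results below stood out because the knockdown change and the ad_TEADi change of a gene differed; every value is the knockdown log2 change minus the ad_TEADi log2 change. For Apoe the difference was 4.20: all 3 siYAP1+TAZ libraries lay above all siControl libraries and all 3 ad_TEADi libraries lay below all ad_GFP libraries, and this difference was not tested, since these levels chose the gene. Of the 7 other members tested, 5 differed by limma at an adjusted p under 0.05: Abcg1 by 0.95, Mylip by 0.88, Nr1h2 by 0.28, Srebf1 by -0.49 and Scd1 by -0.31. Over all genes tested, 51.5% differed in this way.

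The other named genes were picked for large called changes, for a profile close to that of Apoe or, for its neighbours, by position. Where size or profile was the rule, how many of them differ follows in part from the choice. The named genes that differed by limma are given here by list. For LXR partners and cofactors the values were 0.55 for Nrip1, 0.54 for Ncoa1, 0.26 for Rxra and 0.20 for Ep300. For other LXR targets they were 1.89 for Apoc1, 1.14 for Pnpla3, 0.25 for Lpl and -1.0 for Arl4c. For sterol transport they were 0.32 for Abca12, 1.26 for Abcg4, -0.35 for Cav1 and 0.45 for Npc1, and for oxysterol metabolism 1.96 for Cyp27a1 and 1.10 for Hsd3b7. Cyp27a1 rose in the knockdown and fell under ad_TEADi. Between the controls, Arl4c stood at -0.74 in ad_GFP against siControl.

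The receptors of apolipoprotein E gave 0.59 for Lrp1, -0.37 for Sorl1 and -0.48 for Lrp8. Fatty acid genes gave -0.72 for Scd3, -0.30 for Fads2 and 0.37 for Me1. SREBP genes gave 0.32 for Sqle, 0.31 for Scap and 0.52 for Insig2. Acyltransferases gave -0.45 for Lpcat4, -0.49 for Mboat1 and 0.50 for Lpcat2. Neighbours of Apoe gave -0.45 for Tomm40, 0.66 for Nectin2, 0.74 for Bcam, 0.32 for Cblc and 0.47 for Bcl3. The genes closest to Apoe in profile gave 2.50 for Gpnmb, 1.88 for Chit1, 3.23 for Krt15 and 1.83 for Defb1; they were picked for a profile that holds this difference. Of the 40 genes tested and listed here, 5 were called in opposite directions under the treatments (Mylip, Cyp27a1, Tomm40, Nectin2 and Bcam). The share of all genes called in opposite directions was not computed, so this count has no reference. Mylip, Cyp27a1, Nectin2 and Bcam were also called higher in ad_GFP than in siControl by limma, and Tomm40 was not. The ad_TEADi call for Tomm40 was lost under both other scalings and without ad_GFP A, ad_GFP C, ad_TEADi A or ad_TEADi B. The calls for Ep300, Lpl, Abca12, Cblc and Nr1h2 were lost under rescaling to one total. That for Abca12 was also lost under quantile normalization and without siControl A, siControl B, siYAP1+TAZ B, ad_GFP C or ad_TEADi B. That for Lpl was also lost without siControl A, siYAP1+TAZ B, ad_GFP B, ad_GFP C, ad_TEADi A or ad_TEADi B, and that for Cblc without siControl C, siYAP1+TAZ C, ad_GFP B, ad_GFP C or ad_TEADi C.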

How the results depend on the processing

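Of 28 results on members other than Apoe, called or not, 20 kept their direction and their side of the threshold under every alternative. For other named genes only called results were followed, and 129 of 142 kept both. These shares therefore cannot be compared. With columns rescaled to one total, 2 of the other members were lower in the knockdown instead of 1, and 0 instead of 1 were lower in ad_GFP than in siControl, where 4 instead of 3 were higher, and 2 instead of 3 had a positive difference between treatments; quantile normalization also gave 2 in the knockdown. Leaving out 1 library moved the count lower in ad_GFP between 0 and 1. Values that changed sign were the Abca1 difference (-0.03, one total), Nr1h2 under ad_TEADi (-0.04, one total; -0.02, quantile), the Lpcat3 difference (-0.05; -0.02), Srebf1 in the knockdown (-0.16; -0.14; -0.01 to 0.06 leaving out a library) and Srebf1 between the controls (0.03; 0.03; -0.08 to 0.02). The causes were not tested. Apoe in the knockdown was 3.55 under both scalings. Same-letter libraries had correlations of deviations of -0.01 to 0.09 for siControl with siYAP1+TAZ and -0.00 to 0.16 for ad_GFP with ad_TEADi. For siControl with ad_GFP they were -0.03 to 0.13. Libraries of unlike letters were not compared, so whether the letters pair libraries was not settled. A replicate block gave 9061 calls against 8932 in the knockdown and 7917 against 7754 under ad_TEADi. It gave 6847 against 6673 for the difference and 5432 against 5244 between the controls. The members' calls stayed as they were. Nr1h3, at an estimated 2 to 10 reads per library, is limited by depth.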
